A study of Mus musculus with 2 samples.

Results

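The mouse brainstem libraries contained 233 transcripts that are named for lying opposite to another gene. Each has a symbol ending in os, or os and a digit, and the symbol without that ending, its sense partner, is also in the count matrix. Of 25556 genes in the matrix, 269 symbols met that name rule, and 233 of them held at least 20 unique molecular identifiers (UMIs, each standing for 1 captured RNA molecule) over all nuclei. The other 36 held fewer. Sox5os1, Lrp8os1 and Rbfaos fell just short with 19 UMIs each, whereas Dnah2os and Pard3bos2 entered with 20 and Lyzl4os with 21. The partners are reference values, and 25 of them had more than 1 such transcript.

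The study profiled single nuclei of the brainstem from female mice at postnatal day 41. The HET mice carried 1 Scn1a A1783V knock-in allele, a loss-of-function missense change in the sodium channel gene behind Dravet Syndrome, obtained from a floxed stop male and a Sox2-Cre female, whose Cre acts across the embryo. The WT mice were littermates with intact Scn1a, and both genotypes were untreated and on a C57Bl6 background (C57BL/6J in the study's methods). There was 1 library per genotype (N = 1 per group), so no difference between genotypes could be tested, and every interval given is an exact 95% interval that covers counting error only.

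The WT library held 9259 nuclei and 70301390 UMIs, and the HET library 9022 nuclei and 66176778 UMIs, with medians of 5456 and 5646 UMIs per nucleus. The libraries share 23 cell barcodes. Ribosomal protein transcripts made up a median of 0.696% of a nucleus in WT and 0.407% in HET, and mitochondrial transcripts 0.343% and 0.458%. Of 16 deposited clusters, 12 had at least 30 nuclei in each library and were compared. The cluster labels matched most of their markers, with Mog highest in oligo, Flt1 in endo, Dnah12 in epend.1, the serotonergic gene Tph2 in neuron.7, the granule cell gene Gabra6 in neuron.5 and the choroid plexus gene Ttr in epend.2, although Slc1a3 was highest in fibro and Cx3cr1 in epend.2. Scn1a itself stood at 380 counts per 1000000 UMIs (CPM) in WT and 420 CPM in HET, which does not check the genotype since the allele differs by a missense change.

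Transcription from the strand opposite a gene is common in mammalian genomes. Some opposite-strand transcripts start beside the promoter of the sense gene and run away from it, others lie whole within its introns or cross its end, and most code for no protein. Many such RNAs stay in the nucleus, so a library made from nuclei captures them. Well studied cases act on the sense gene in cis, or carry small RNAs, or act elsewhere in the cell, while for most no function is known.

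By their positions in GENCODE vM21 on GRCm38 (mm10), 103 of the 233 transcripts lay whole inside the partner on the other strand, and 61 overlapped its 5′ end (head overlap). A further 31 started upstream of the partner start and ran away from it without overlap (divergent), 22 crossed its 3′ end (tail overlap), 10 spanned the whole partner and 6 lay beyond its 3′ end. Of the inside transcripts, 49 touched exons of the partner and 54 lay in its introns alone. The annotation calls 8 of the 233 protein coding.

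RefSeq promoter windows of the GRCm38.p6 build, with 250 bases before and 50 after a start, were found for 144 of the 233 transcripts. Start regions differed by position. The median window held 22 CG dinucleotides among divergent transcripts, 14.5 among those with head overlap, 4 among inside transcripts and 4 among those with tail overlap, against 7 over all 32851 windows of the table. The GC box, searched as GGGCGG or its reverse complement CCGCCC, was present in 63.6% of divergent windows, 47.6% of head overlap windows and 10.9% of inside windows, against 35.7% of all windows. The TATA box, searched as TATAAA or TTTATA, was in 0% of 22 divergent and 10.9% of 55 inside windows, against 13.6% of all. The CCAAT box, searched as CCAAT or ATTGG, was in 36.4% of divergent, 34.5% of inside and 37.4% of all windows.

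Examples of both kinds are given as 4 windows, 2 for divergent transcripts and 2 for inside transcripts. The divergent ones had a start within 200 bases of the partner, and the inside ones were at least 1.5-fold higher in HET. In each group they had the most UMIs among the transcripts left to choose from. The choice was limited by chromosome and to windows close to the GENCODE vM21 start. Each is written 5′ to 3′ along the transcript, with every CG in capitals. Cep83os (chr10:94688564-94688863, minus strand) starts 78 bases from Cep83. Its window is set on a start 37 bases from that one and held 46 CG. Lhx1os (chr11:84525410-84525709, plus strand) starts 125 bases from Lhx1, and its window held 33 CG. Bcas1os2 (chr2:170356111-170356410, plus strand) starts inside Bcas1 and its window held 16 CG, well above the inside median of 4. Dnm3os (chr1:162217373-162217672, plus strand), the precursor of miR-199a and miR-214, starts inside Dnm3 and its window held 5 CG.
Cep83os: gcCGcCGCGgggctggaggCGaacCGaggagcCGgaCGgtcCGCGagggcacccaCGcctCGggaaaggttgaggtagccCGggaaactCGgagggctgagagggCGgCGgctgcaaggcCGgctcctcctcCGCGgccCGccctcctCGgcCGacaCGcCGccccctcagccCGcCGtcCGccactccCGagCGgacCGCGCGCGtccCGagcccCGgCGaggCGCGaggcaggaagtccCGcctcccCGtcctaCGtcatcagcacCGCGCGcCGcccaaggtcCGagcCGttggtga
Lhx1os: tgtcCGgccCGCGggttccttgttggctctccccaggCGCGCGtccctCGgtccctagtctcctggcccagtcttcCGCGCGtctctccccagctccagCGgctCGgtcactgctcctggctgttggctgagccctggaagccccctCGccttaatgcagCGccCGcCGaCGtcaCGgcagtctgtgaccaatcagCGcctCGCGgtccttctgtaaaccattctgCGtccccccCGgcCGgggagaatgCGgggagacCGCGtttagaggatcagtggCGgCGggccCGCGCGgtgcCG
Bcas1os2: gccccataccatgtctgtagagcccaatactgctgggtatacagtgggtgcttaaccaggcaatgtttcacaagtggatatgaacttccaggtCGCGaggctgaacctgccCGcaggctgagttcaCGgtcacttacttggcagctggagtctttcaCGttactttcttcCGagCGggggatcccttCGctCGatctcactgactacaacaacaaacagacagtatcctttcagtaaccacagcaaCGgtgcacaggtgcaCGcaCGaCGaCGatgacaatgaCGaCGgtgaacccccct
Dnm3os: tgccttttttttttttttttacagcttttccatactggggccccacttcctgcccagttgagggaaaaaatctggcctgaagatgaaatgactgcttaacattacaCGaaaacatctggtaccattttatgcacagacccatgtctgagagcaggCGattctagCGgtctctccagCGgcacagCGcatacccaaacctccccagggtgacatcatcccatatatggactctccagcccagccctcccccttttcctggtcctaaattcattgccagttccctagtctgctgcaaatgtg

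At the other end of the transcript, a polyadenylation signal (AATAAA or ATTAAA, on the transcript strand) lay in the last 50 bases of 49.7% of 159 annotated inside transcript models, 51.9% of 54 with tail overlap, 47.3% of 148 with head overlap and 57.6% of 59 divergent models. The share was 42.4% over all antisense models and 50.2% over all protein coding models. The kit captures poly(A) RNA near its 3′ end and marks strand. The sources used here state neither how reads were assigned to strands nor whether intronic reads were counted. Reads from any stretch where a pair overlaps are therefore uncertain, and so are the UMI ratios of transcript to partner.

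Together the 233 transcripts held 616586 UMIs, or 0.452% of all. The median transcript held 410 UMIs, 162 held at least 200 and 69 at least 1000. Nrg3os had the most, with 114513. It lies in the introns of Nrg3, which encodes a neuregulin ligand of the ErbB4 receptor, at chr14:38898302-38958794, and stood at 735 CPM in WT and 949 CPM in HET. Cdr1os followed with 83011 UMIs, at 565 CPM in WT and 655 CPM in HET. Sorbs2os held 28314 and Far1os 23399, inside genes for an actin adaptor and for a fatty acyl-CoA reductase of ether lipid synthesis.

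Most of the transcripts were scarcer than their partner. Among the 162 with at least 200 UMIs, the median ratio of UMIs of the transcript to UMIs of the partner was 0.187, 29 were under 0.05 and 25 exceeded their partner. The median ratio was 0.124 for inside transcripts, 0.307 for head overlap, 0.187 for divergent and 1.32 for spanning ones. These ratios were not scaled by length, as the kit captures RNA near its 3′ end. Whether intronic reads were counted is not stated, so any part of gene length in the ratios was not tested. In the plot of UMIs of each pair, the inside transcripts form most of the lower right and of the 25 above the line of equal UMIs, 19 have a partner with fewer than 1000 UMIs.

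**Figure D1:**
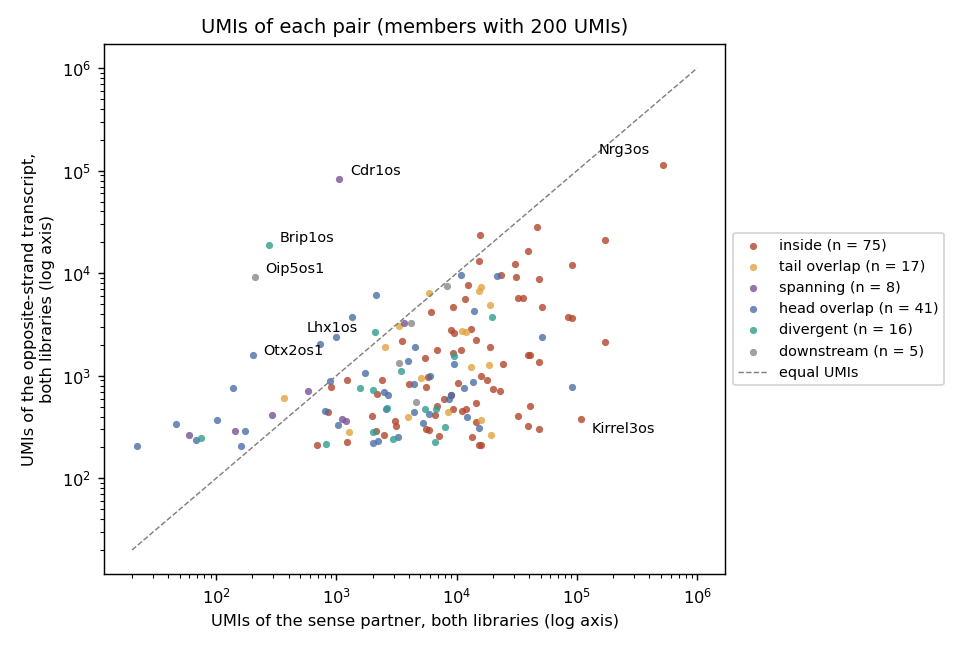
UMIs of each opposite-strand transcript (vertical, log axis) against UMIs of its sense partner (horizontal, log axis), both libraries summed, for members with at least 200 UMIs; each point is 1 pair, coloured by position, and the dashed line marks equal UMIs. Nrg3os lies far right with 114513 UMIs, while Cdr1os, Brip1os and Oip5os1 stand far above the line.

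The 5 highest ratios belonged to transcripts whose partner held 22 to 1060 UMIs. Cdr1os spans Cdr1 on chromosome X (chrX:61116378-61292484) and is the host transcript of a circular RNA that binds miR-7. It outnumbered the UMIs assigned to Cdr1 by 78.3, with ratios of 133 in WT and 56.9 in HET. The counts cannot separate circular from linear RNA of this locus. Brip1os starts 177 bases from Brip1, which encodes a DNA repair helicase, and held 68.2 UMIs for each of Brip1. Oip5os1, known as Cyrano and the carrier of a conserved miR-7 site, held 43.7 for each of Oip5, a gene for a centromere factor. Ctcflos and Otx2os1 followed at 9.41 and 7.93.

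Brip1os differed little between clusters, from 85.7 CPM in endo to 148 CPM in neuron.4. Oip5os1 ranged from 51.4 CPM in neuron.7 to 179 CPM in endo. Cdr1os was steeper, at 788 CPM in neuron.7 and 731 CPM in neuron.1 but 61.1 CPM in astro. All 3 were thus detected in every compared cluster, with a neuronal excess for Cdr1os.

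The lowest ratios came from transcripts opposite very abundant genes. Kirrel3os, in an intron of the adhesion gene Kirrel3, held 0.00352 UMIs for each of its partner. Plxna4os1, Rapgef4os3, Grip1os3 and Macrod2os2 held 0.00624, 0.00834, 0.00859 and 0.0124. Their partners encode a semaphorin receptor, a cAMP-responsive exchange factor, a scaffold of glutamate receptors and an ADP-ribose hydrolase.

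Over the 12 clusters, most transcripts had a profile like that of their partner. The Pearson correlation of log2(CPM + 1) between transcript and partner had a median of 0.75 over 162 pairs, exceeded 0.9 in 45 pairs and was below 0 in 22. These correlations rest on 12 clusters that share libraries and depth, and are given as descriptions. The median was 0.86 for inside, 0.80 for tail overlap, 0.38 for head overlap and 0.27 for divergent transcripts. The highest CPM fell in the same cluster for transcript and partner in 68 of 162 pairs.

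The most alike profiles were neuronal. Nrg3os and Nrg3 had r = 1.00, and their UMI ratio only ran from 0.182 in epend.1 to 0.242 in neuron.3. Nrg3os reached 1075 CPM in neuron.4 and 1053 CPM in neuron.2, and was lowest in astro at 43.7 CPM. Macrod2os1 and Macrod2 had r = 0.99, as had Dtnbos and Dtnb, a dystrobrevin gene. Nell1os and Nell1, a secreted glycoprotein gene, had r = 0.98 with both highest in neuron.2, at 107 CPM and 437 CPM.

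Other pairs shared a glial or vascular cluster. Bcas1os2 was highest in oligo at 352 CPM, as was Bcas1, an early myelination gene, at 636 CPM. Nkx2-2os, opposite a transcription factor of the oligodendrocyte lineage, was highest in oligo at 112 CPM with astro next at 63.0 CPM, and Nkx2-2 itself reached 36.4 CPM in oligo. Tbx3os1 held 85.1% of its summed cluster CPM in endo, where it stood at 127 CPM and Tbx3, a T-box factor, at 65.8 CPM. Has2os held 70.9% in epend.1, at 46.0 CPM, and the hyaluronan synthase gene Has2 was also highest there. Fhad1os2 held 67.5% in epend.1.

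**Figure D2:**
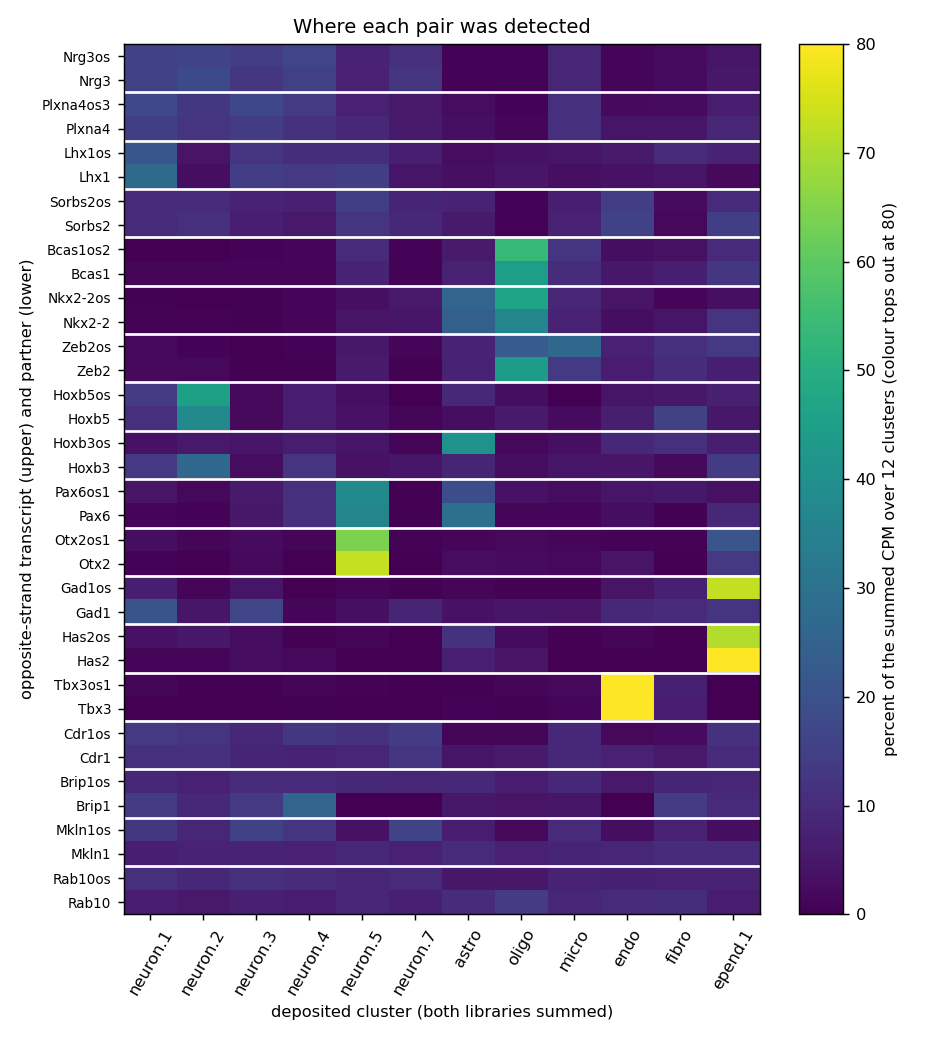
Each row is an opposite-strand transcript or, just under it, its sense partner; columns are the 12 compared clusters with both libraries summed, and colour gives the percent of the summed cluster CPM. Tbx3os1 and Tbx3 share endo and Otx2os1 and Otx2 share neuron.5, whereas Gad1os lies in epend.1 and Hoxb3os in astro, apart from their partners.

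Some pairs went different ways. Gad1os, which overlaps the 5′ end of the gene for the main GABA-synthesising enzyme, was highest in epend.1 at 141 CPM (114 to 173), with fibro next at 13.7 CPM, while Gad1 was highest in neuron.1 at 38.9 CPM. In epend.1 it stood at 104 CPM in WT and 211 CPM in HET, from 44 and 48 UMIs. Most UMIs of Gad1os, 569 in WT and 573 in HET, nevertheless came from the large neuron.1 cluster.

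Hoxb3os, crossing the 3′ end of a hindbrain patterning gene, was highest in astro at 172 CPM (160 to 184), clear of fibro at 46.7 CPM. Hoxb3 was highest in neuron.2 at 56.1 CPM. The ratio of Hoxb3os to Hoxb3 was 10.1 in astro and 0.412 in neuron.2, a 24.6-fold spread. Hoxb5os and Hoxb5 were both highest in neuron.2. Among 119 pairs with at least 20 UMIs of both genes in at least 3 clusters, only Junos, opposite the AP-1 gene Jun, had a wider spread at 44.0-fold, with 0.312 in oligo and 13.7 in neuron.4 (named after its values were seen).

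Rab10os and Mkln1os had profiles unlike those of their partners. Rab10os, at the 3′ end of a vesicle transport GTPase gene, ran from 62.0 CPM in neuron.3 to 28.4 CPM in oligo, where Rab10 was highest at 225 CPM (r = -0.82). Mkln1os, which starts 38 bases into Mkln1, ran from 103 CPM in neuron.7 to 11.6 CPM in oligo (r = -0.41), while Mkln1 stood at 164 CPM and 163 CPM there. In neither pair was the partner highest where the transcript was.

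Within single nuclei, the partner was detected more often where the transcript was, in most pairs. Nuclei of the 9 neuronal clusters with 5000 to 10000 UMIs, 2490 in WT and 2525 in HET, were split by whether they held a UMI of the transcript. Of 147 pairs with at least 20 such nuclei in each library, the partner was detected in a higher share of nuclei with the transcript in both libraries in 105. The intervals were apart in both libraries for 38, and for 0 pairs in the opposite direction. The median difference was 5.25 percentage points in WT and 4.91 in HET. Nuclei with the transcript were also deeper in both libraries in 119 of these pairs, with a median gap of 355 UMIs in WT and 359 in HET. With every nucleus thinned to 5000 UMIs, 132 pairs had 20 such nuclei, of which 80 were higher in both libraries and 27 had intervals apart, and the median difference was 3.23 and 3.90 points (added after seeing the data).

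The widest gap in both libraries was that of Mecomos, with Mecom, a zinc finger transcription factor gene, in 87.9% of 33 WT nuclei with it and 5.05% of those without, and in 97.7% and 3.10% in HET (named after its values were seen). Among transcripts named by rule, Nell1 was detected in 87.8% of WT nuclei with Nell1os and 31.6% of those without, and in 88.6% and 31.7% in HET. Sox5, a transcription factor gene, was detected in 72.7% of WT nuclei with Sox5os4 and 17.1% without, and in 75.8% and 19.2% in HET. The gap was narrower for Lhx1os and Gad1os. For Lhx1os the shares of nuclei with Lhx1 were 32.8% and 8.62% in WT and 24.0% and 7.22% in HET. For Gad1os they were 50.5% and 19.0% in WT and 48.4% and 18.2% in HET. Mkln1 was found in 60.7% and 63.0% of WT nuclei with and without Mkln1os, and in 68.8% and 64.3% in HET, with overlapping intervals in both. The share without the transcript is the level against which each should be read. Free RNA in droplets can reach all nuclei, and its part in these shares was not measured.

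Between genotypes, 68 of the 233 transcripts were at least 1.5-fold higher in HET and 33 at least 1.5-fold lower. Over all 21997 genes with 20 UMIs, 10.9% were that much higher and 15.3% that much lower, so the transcripts were past the fold upward in 29.2% and downward in 14.2%. Among the 162 with at least 200 UMIs, 44 were higher and 20 lower, against 6.29% and 12.7% of 16347 genes. The median log2 ratio of HET over WT was 0.19 for the transcripts, -0.02 for their partners and -0.09 for all genes. A transcript and its partner were on the same side of 0 in 128 of 227 pairs. In sums over a library, fewer nuclei of a type and less RNA per nucleus cannot be told apart.

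The position of the transcript separated these ratios. Of the 103 inside transcripts, 49 were at least 1.5-fold higher in HET and 5 lower, with a median log2 ratio of 0.56 against 0.03 for their partners. Of the 22 with tail overlap, 7 were higher and 0 lower, with a median of 0.31. Of the 61 with head overlap, 8 were higher and 16 lower, with a median of -0.06, against -0.16 for their partners with 20 UMIs. Of the 31 divergent ones 2 were higher and 10 lower, with a median of -0.16, against -0.13 for their partners with 20 UMIs. Of the 10 spanning ones 2 were higher and 1 lower, and of the 6 downstream ones 0 and 1, too few to set against a share. Over all genes with 20 UMIs, 10.9% were that much higher and 15.3% that much lower. The 13.1% of head overlap transcripts that were higher is near that share. Whether the inside transcript touched exons of its partner made little difference, with medians of 0.58 and 0.55.

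**Figure D3:**
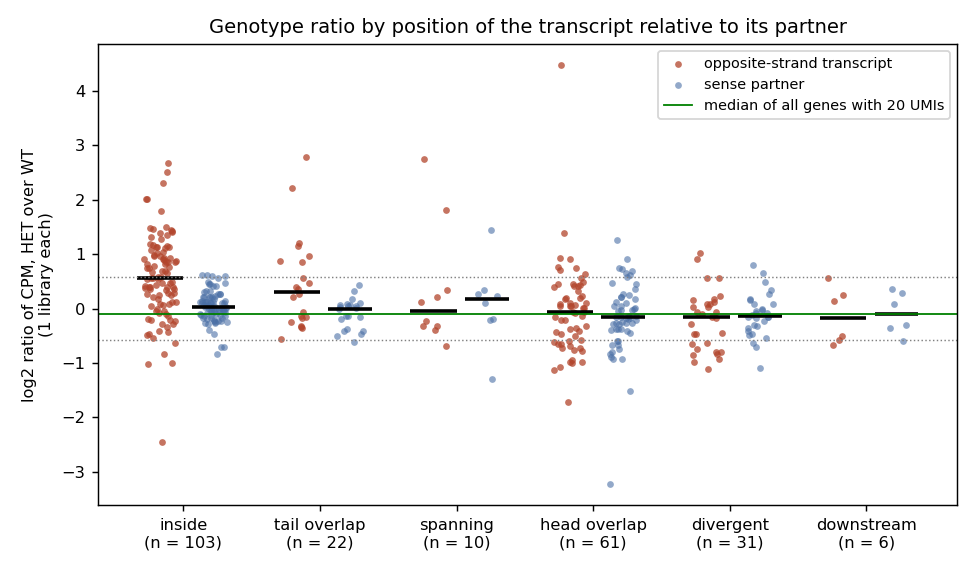
Log2 ratio of CPM in HET over WT (vertical) by position of the transcript relative to its partner (horizontal); red points are opposite-strand transcripts, blue points their sense partners, black bars group medians, dotted lines the 1.5-fold limits, and the green line the median of all genes. Inside transcripts have a median of 0.56 while their partners have one of 0.03.

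The excess of inside transcripts over their partners recurred in each cluster. Their median log2 ratio was above 0, and above that of their partners, in 12 of 12 clusters, running from 0.27 in neuron.5 to 1.03 in endo. The medians of the partners ran from 0.00 to 0.57, and those of all genes from -0.16 to -0.02. The order of positions did not hold in every cluster. In neuron.4 the median was 0.40 for inside transcripts, 0.55 for tail overlap and 0.34 for head overlap. In neuron.1, 58 of 213 transcripts were at least 1.5-fold higher and 28 lower, against 10.0% and 14.2% of genes. In oligo 44 of 121 were higher and 10 lower, against 10.5% and 15.2%. In astro 30 of 94 were higher and 9 lower, against 8.38% and 18.4%. The clusters come from the same 2 libraries and are not independent replicates.

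**Figure D4:**
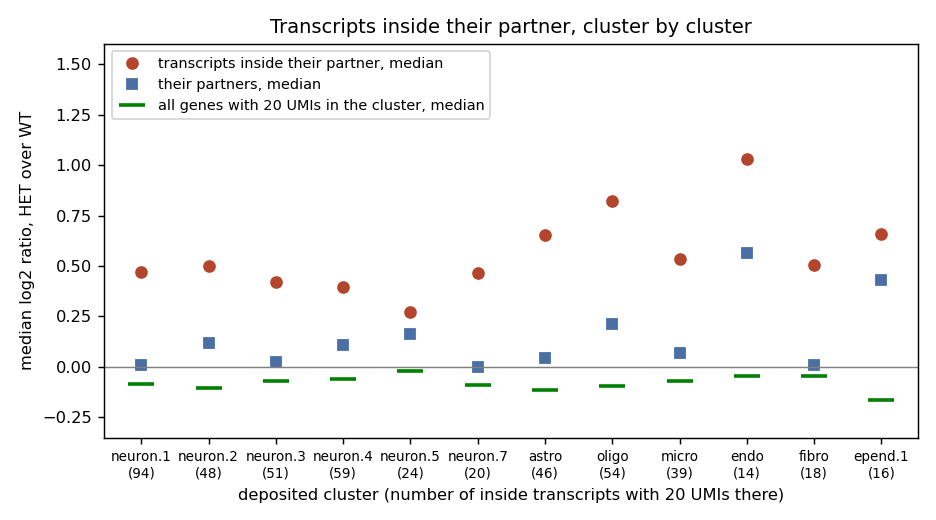
Median log2 ratio of HET over WT in each compared cluster (horizontal, with the number of inside transcripts) for transcripts inside their partner (red circles), their partners (blue squares) and all genes with 20 UMIs there (green bars). Red circles run from 0.27 to 1.03 and lie above the blue squares in 12 of 12 clusters.

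This shift was shared by other non-coding genes placed the same way. Outside the 269 symbols, 1286 non-coding genes lay inside a gene on the other strand, and their median log2 ratio was 0.49, with 583 of them (45.3%) at least 1.5-fold higher in HET and 98 lower. For 227 non-coding genes inside a gene on the same strand the median was 0.04, and for 1915 that overlapped no gene it was -0.03. Ribosomal protein and mitochondrial shares, given above, differed between the libraries, and the median ratio of all genes also differed with gene span, from -0.37 under 2 kb to 0.06 over 50 kb, while members had medians of 0.09 and 0.22 in those spans. The part of these library differences in the result was not tested, and genotype and library cannot be told apart.

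Among abundant inside transcripts, Sorbs2os stood at 146 CPM in WT and 272 CPM in HET, which is 0.90 on the log2 scale (0.86 to 0.93), while Sorbs2 stood at 351 and 333 CPM. Bcas1os2 stood at 22.3 and 61.7 CPM (1.47, 1.38 to 1.55) and Bcas1 at 69.2 and 105 CPM. The oligo cluster held 2382 HET and 1767 WT nuclei, and with equal cluster weights the ratio of Bcas1os2 was 0.76. Macrod2os1 stood at 111 and 202 CPM (0.86) with Macrod2 at a ratio of 0.21. Nrg3os had a ratio of 0.37 (0.35 to 0.39) and Nrg3 of 0.11. In each of these 4 the transcript exceeded its partner's ratio, though Bcas1os2 was also named for a high ratio.

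Not every inside transcript was higher in HET. Dtnbos stood at 75.5 CPM in WT and 64.6 CPM in HET (-0.22, -0.28 to -0.17), and Runx2os1, inside the gene of a bone and lineage factor, at 2.06 and 1.01 CPM (-1.03) while Runx2 itself had a ratio of 0.59. Smaller positive ratios were those of the abundant inside transcripts Plxna4os3 (0.18), Nr6a1os (0.25), Rapgef4os1 (0.28), Grip1os2 (0.29), Ube4bos1 (0.43), Far1os (0.47), Rsf1os1 (0.49) and Nell1os (0.56). Of these, Nr6a1 encodes an orphan nuclear receptor, Ube4b a ubiquitin ligase and Rsf1 a chromatin remodelling subunit.

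The 5 highest ratios among transcripts with 200 UMIs were those of Fam219aos (0.498 CPM in WT and 3.43 CPM in HET, log2 ratio 2.78), Nudt12os (1.81), Chn1os1 (1.79), Kirrel3os (1.48) and Bcas1os2. Fam219aos rested on 35 and 227 UMIs, with an interval of 2.27 to 3.34, and Fam219a had a ratio of -0.01. Nudt12 encodes a NADH pyrophosphatase and had a ratio of 0.10, and Chn1, a Rac-regulating chimaerin, one of -0.13. Kirrel3 was at 0.45 and Bcas1 at 0.60. Each of the 5 transcripts exceeded its partner's ratio, which their choice as the highest ratios made likely. With equal cluster weights Fam219aos became 3.56 and Chn1os1 2.69.

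The 5 lowest were Hoxd3os1 (2.57 and 0.786 CPM, -1.71), Stamos (-1.12), Tbx3os1 (-1.08), Runx2os1 and Otx2os1 (-1.01). With equal cluster weights Hoxd3os1 became -1.11. Hoxd3 was lower too, at -0.94, while Stam, an endosomal sorting gene, was at -0.08. Tbx3os1 was higher in HET within endo, at 102 CPM in WT and 177 CPM in HET from 69 and 58 UMIs, but in neuron.1 it stood at 3.13 and 0.590 CPM from 151 and 24 UMIs. With each cluster weighted equally its ratio became 0.65.

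Otx2os1 turned on 1 cluster. Otx2, a homeobox gene used by choroid plexus and granule neurons, was at -1.52, and Otx2os1 at 15.5 CPM in WT and 7.72 CPM in HET. In epend.2, with 108 WT and 6 HET nuclei, Otx2os1 held 768 of its 1091 WT UMIs and 55 of its 511 HET UMIs, at 1937 and 2279 CPM. Without the 5 clusters that came mostly from 1 library its ratio was 0.74. Among compared clusters it was highest in neuron.5, at 102 CPM (86.6 to 120), clear of epend.1 at 33.7 CPM (21.1 to 51.1).

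Partners that are developmental transcription factors had 20 of the transcripts. Of these 6 were at least 1.5-fold higher in HET and 4 lower, with a median of 0.00, against 62 and 29 of 213 for the others, with a median of 0.21, and 10.9% and 15.3% of all genes. Nkx2-2os stood at 11.2 CPM in WT and 19.1 CPM in HET (0.77, 0.64 to 0.90) while Nkx2-2 stood at 5.38 and 5.41 CPM. With equal cluster weights its ratio was 0.22, short of 1.5-fold. Within oligo it stood at 101 and 121 CPM and within astro at 49.7 and 73.8 CPM. Zeb2os, in a gene highest in oligo, had a ratio of 0.75 (0.58 with equal cluster weights, just short of 1.5-fold) and Zeb2 of 0.21. Pax6os1, highest in neuron.5 as was Pax6, had a ratio of 0.02, and Foxd2os, with 88.4% of its summed cluster CPM in fibro, rested on 58 and 45 UMIs.

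Lhx1os and Lhx1, whose starts lie 125 bases apart, stood at 19.2 and 17.6 CPM in WT and 19.7 and 13.1 CPM in HET. The log2 ratio was 0.03 (-0.08 to 0.14) for Lhx1os and -0.42 for Lhx1. Both were highest in neuron.1. Hoxb3os was at -0.37 and Hoxb3 at -0.62, and Hoxb5os at -0.33 and Hoxb5 at -1.30, so that in these pairs, and in the Hoxd3 pair, both genes lay below 0. With equal cluster weights Hoxb5os, with 207 and 155 UMIs, turned to 0.66.

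Cep83os, with a CG-rich window, had a ratio of -0.16 and Cep83 of 0.48, and Dnm3os had 1.04 (0.94 to 1.14) with Dnm3 at 0.12 (both named for their windows). Windows of the transcripts at least 1.5-fold higher in HET held a median of 4 CG over 44 windows, and those lower a median of 13 over 20. The 2 sets also differ by position. Inside transcripts, with a median of 4 CG, made up 49 of the 68 higher ones. Of the 33 lower ones, 16 had head overlap and 10 were divergent, with medians of 14.5 and 22 CG. CG content and position were not separated.

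Further named transcripts ranged from -0.73 to 0.47. Cdr1os had a ratio of 0.21, Brip1os of 0.15, Oip5os1 of 0.25 and Ino80dos, beside a gene of the INO80 remodeller, of 0.17. Mkln1os was at 0.10 and Rab10os at -0.16. Slc7a6os, a protein coding gene beyond the 3′ end of an amino acid transporter gene, stood at 63.7 CPM in WT and 45.0 CPM in HET (-0.50). Rsf1os2 was at 0.47, Has2os at -0.21, Gad1os at 0.05 and Fhad1os2 at -0.06, and Ctcflos, beside a CTCF paralogue, at -0.73. With equal cluster weights Gad1os became 0.76, past 1.5-fold, and Ctcflos -1.32.

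Transcripts that share a partner did not always have a like ratio. Of the 25 partners with more than 1 transcript, 55 transcripts in all, the intervals of the highest and the lowest were apart for 16, and for 4 they lay on opposite sides of 0. Within Grip1, Grip1os1 stood at 15.7 CPM in WT and 39.1 CPM in HET (1.32), Grip1os2 at 79.3 and 97.0 CPM (0.29) and Grip1os3, which overlaps the Grip1 start, at 6.84 and 4.56 CPM (-0.58). With equal cluster weights Grip1os3 turned to 0.30, so its side of 0 depends on how clusters are weighted. Only 3 compared clusters held at least 20 UMIs of both Grip1os3 and Grip1, and the cause of the turn was not tested. Grip1 itself was at -0.04. Within Sox5, Sox5os3 was at 1.41, Sox5os4 at 0.00 and Sox5os2 at -0.48, all in the introns and all highest in epend.1. For Sox5os3, only 3 compared clusters held at least 20 UMIs of both it and Sox5. Runx2os2 at 1.39 faced Runx2os1 at -1.03, and Arhgap27os3 at 0.56 faced Arhgap27os2 at -0.99 (Grip1os1, Runx2os2 and the Arhgap27 pair named after their values were seen). With equal cluster weights Sox5os3 became 0.96 and Sox5os2 -0.11. Runx2os2 became 2.56 and Runx2os1 -0.97, and Arhgap27os3 became 0.95 and Arhgap27os2 -0.50.

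**Figure D5:**
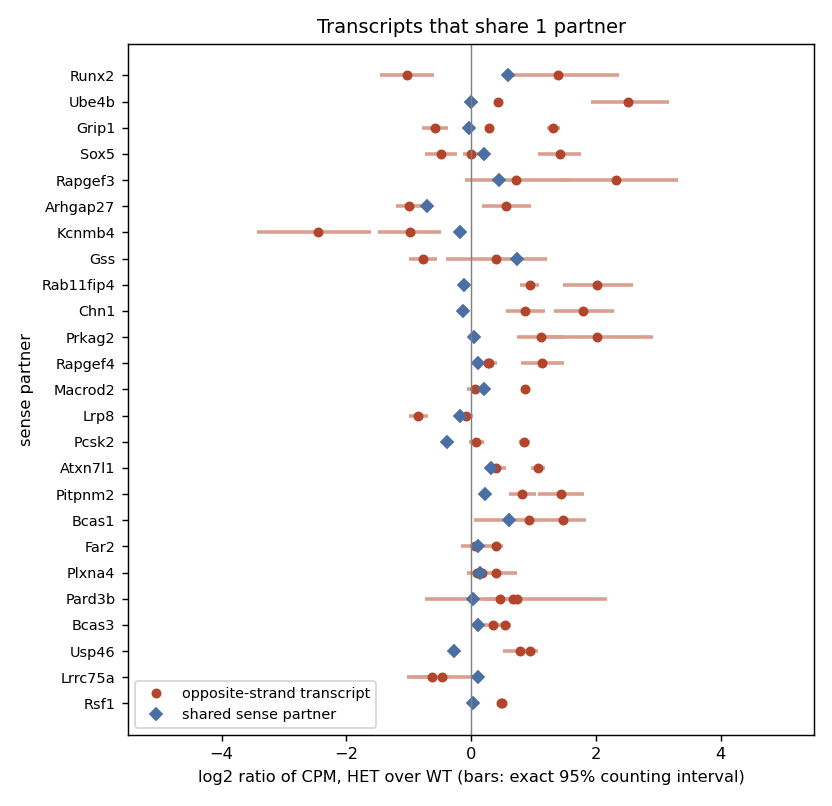
Log2 ratio of CPM in HET over WT (horizontal) for the transcripts of each of the 25 partners with more than 1 transcript (vertical); red points are transcripts with exact 95% counting intervals and blue diamonds the partner. The widest gap is at Runx2, from -1.03 to 1.39, and Rsf1 has the narrowest.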

How the data were processed

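The authors deposited unnormalized counts of UMIs for each gene in each nucleus, from 10x Chromium 3′ v3.1 libraries. The submitters' processing notes name Cell Ranger (version not given in the sources used here), mm10 and Seurat 4.1. The percent values of mitochondrial and ribosomal protein UMIs per nucleus, and the clusters, were taken as the authors deposited them. The doublets had been removed by the authors before deposit.

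UMIs were summed per library or cluster and divided by the total to give CPM. Log2 ratios of HET over WT have exact conditional binomial intervals, levels exact Poisson intervals and shares Clopper-Pearson intervals. A count of 0 was set to 3 counts. With 1 library per genotype no test was run, and past the fold means at least 1.5-fold. The interval was tested on simulated Poisson counts, which hold counting error alone and no spread between nuclei or mice. Positions were those of GENCODE vM21, where 229 members matched by symbol and 4 through RefSeq synonyms. Promoter windows came from RefSeq (GRCm38.p6).

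Members and lists were chosen with earlier results of these data known. Single members were named by rule: the 20 with most UMIs and, among those with 200 UMIs, the 5 highest and 5 lowest in ratio to the partner and in HET over WT, the 5 most confined to 1 cluster, and every member with 100 UMIs opposite a developmental transcription factor, 48 in all. A further result is not reported here. Scripts ran in Python 3.11.15 with scipy 1.17.1, numpy 2.4.6 and pandas 2.3.3, and matplotlib 3.10.9 drew the figures.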

Additional observations from a re-analysis of the deposited data

How the results depend on the processing

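The median log2 ratio of HET over WT over all 233 transcripts was 0.31 with equal cluster weights and 0.30 with the median of genes with 200 UMIs set to 0, against 0.19. For inside transcripts it was 0.66 with that scaling and 0.49 as a mean over nuclei of CPM, against 0.56, and it stayed between 0.54 and 0.60 under the other alternatives (this summary was added after seeing the data). For divergent and head overlap transcripts together the median of -0.07 became 0.051 with equal cluster weights and 0.029 with that scaling, and -0.26 as a mean over nuclei, so its sign depends on the setting. The median UMI ratio to the partner was 0.166 in WT alone and 0.215 in HET alone. Transcripts past the fold numbered 67 to 85 higher and 25 to 34 lower over the alternatives that keep all 233. Among the 189 with at least 100 UMIs they numbered 52 and 25. The counts of shared leading clusters and of shared detection stayed within 1.5 times their value. Pairs with shared detection higher in both libraries numbered 80 with nuclei thinned to 5000 UMIs, against 105. Of the 48 named transcripts, 27 left their counting interval with equal cluster weights and 1 reversed past 1.5-fold. With those weights Tbx3os1 turned to 0.65, Hoxb5os to 0.66 and Grip1os3 to 0.30, Nkx2-2os (0.22) and Zeb2os (0.58) fell short of 1.5-fold, Gad1os (0.76) and Nell1os (0.88) passed it, and Bcas1os2 (0.76), Chn1os1 (2.69), Fam219aos (3.56), Ctcflos (-1.32) and Hoxd3os1 (-1.11) moved by over 1.5 times. With the median of genes with 200 UMIs set to 0, Nell1os became 0.66 and Rsf1os1 0.59, without the 5 clusters mostly from 1 library Nell1os became 0.59 and Otx2os1 0.74, and with nuclei of 2000 UMIs Grip1os3 became -0.60, which takes Nell1os, Rsf1os1 and Grip1os3 past 1.5-fold, and as a mean over nuclei Tbx3os1 became -0.27. The cause was not tested beyond the cluster values in the report. No paired analysis was possible because each genotype has 1 library. Without replicates, none of these ratios has an error between mice, and transcripts near 20 UMIs are limited by counting.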

Other observations

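Transcripts that the annotation calls protein coding did not all move one way. Of the 8, 3 were at least 1.5-fold higher in HET and 2 lower, with a median log2 ratio of -0.42. Over all genes with 20 UMIs the shares were 10.9% and 15.3%. Cdiptos (log2 ratio of HET over WT 1.40) and Trpc5os (0.76) were among those higher in HET. Ccpg1os (-0.80) and Wdr83os (-0.64) were the 2 at least 1.5-fold lower. Brd3os was at -0.57, Slc7a6os at -0.50 and Cebpzos at -0.33. They were named after their values were seen. Ccpg1os, highest in epend.1 at 39.9 CPM, and Wdr83os, highest in endo at 46.9 CPM, differed in their leading cluster as well.

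Rare transcripts gave the widest ratios. Emx2os held 1 UMI in WT and 21 in HET, a log2 ratio of 4.48 with an interval of 1.84 to 9.85, and Dlx6os1 held 3 and 19, a ratio of 2.75. Kcnmb4os1 held 76 and 13, a ratio of -2.46, while Kcnmb4 was at -0.18. Ube4bos3 held 27 and 145, a ratio of 2.51, while Ube4b was at -0.01. These too were named after their values were seen.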
